A study of Mus musculus with 24 samples.

Results

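The membrane-spanning 4-domain subfamily A (MS4A) genes *Ms4a4a*, *Ms4a4b*, *Ms4a4c*, *Ms4a4d*, *Ms4a6b*, *Ms4a6c*, *Ms4a6d* and *Ms4a7* and the related genes *Tmem176a* and *Tmem176b* were followed across mouse macrophages labelled wild type or *Olfml3* knockout. These were 10 of the 56691 genes measured, and each was found by its symbol in the tables of both cell types. The set was chosen by measured values, since *Ms4a6b* was lower and *Tmem176a* was higher in the knockout libraries in all 4 knockout comparisons. The knockout values of these 2 genes are therefore a description with no test, and the other 8 genes were listed by family name with those results known.

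RNA-seq was performed on RAW264.7 cells, a mouse macrophage-like leukaemia line, and on bone marrow-derived macrophages (BMDMs). The RAW264.7 knockout was a single-cell clone made with lentiviral CRISPR against *Olfml3*. The BMDMs came from 8-week-old male C57BL/6 mice, wild type or with the global deletion *Olfml3*-/-, and were grown for 6 days with L929 supernatant. Wild-type and knockout cells of each type received PBS or 100 ng/mL of lipopolysaccharide (LPS), a bacterial cell wall component, for 4 h. Each of the 8 groups had 3 libraries, which gave 24 in all.

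The RAW264.7 libraries held between 11638273 and 16478616 counts each, and the BMDM libraries between 17121240 and 22873094. In BMDMs *Olfml3* was at 0.597 FPKM (fragments per kilobase of exonic length, scaled to library size) in wild type and 0.0167 in knockout with PBS. In RAW264.7 cells *Olfml3* RNA was higher in the libraries labelled knockout. With PBS it was at 0.163 FPKM in wild type and 0.950 in labelled knockout, and with LPS at 0.183 and 18.7. The paper reports Sanger sequencing of its clones and knockout at both alleles. The RNA level does not test this, and these groups are called labelled knockout below. Replicate 1 of the labelled knockout RAW264.7 group with PBS stood apart, with a mean correlation of 0.936 with its group against 0.957 to 0.991 for the other 23 libraries. Macrophage markers were present in both cell types, but *Mertk* had 0 counts in all 12 RAW264.7 libraries.

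MS4A proteins are small proteins that cross the membrane several times with both ends inside the cell, and many act beside immune receptors. The best known members mark B cells (*Ms4a1*) or form part of the high-affinity IgE receptor of mast cells (*Ms4a2*), while *Ms4a4a* and *Ms4a7* are widely used as macrophage markers. *Tmem176a* and *Tmem176b* encode related membrane proteins of dendritic cells and macrophages, and TMEM176B has been described as a cation channel that restrains inflammasome activity. LPS is sensed by Toll-like receptor 4 and induces inflammatory genes directly and interferon-induced genes through secreted type I interferon.

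In the deposited coordinates the 8 MS4A genes lay on chromosome 19 within 283.8 kb, in the order *Ms4a7*, *Ms4a4a*, *Ms4a4c*, *Ms4a4b*, *Ms4a6c*, *Ms4a6b*, *Ms4a4d* and *Ms4a6d*. *Ms4a6b* spanned 11493876 to 11508620 and *Ms4a6c*, the nearest of the other members before it, 11446730 to 11459556, both on the plus strand. *Tmem176b* (48810752 to 48818430, minus strand) and *Tmem176a* (48817853 to 48824005, plus strand) lay head to head on chromosome 6 with an overlap of 578 bases. These coordinates differ from those of GRCm38 and were not combined with the sequences, which are from RefSeq on GRCm38.p6.

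Start-site windows of 300 bases, from 250 bases before a RefSeq transcript start to 50 after it, were held for 9 of the 10 genes, all but *Ms4a6d*. The windows of *Ms4a6b* and *Ms4a6c* are shown because the pair shared its direction with PBS in RAW264.7 cells and parted with LPS. Capitals mark runs of at least 15 bases that also occur in the other window. Both are on the plus strand, at chr19:11518309-11518608 for *Ms4a6b* and chr19:11469118-11469417 for *Ms4a6c*.
Ms4a6b: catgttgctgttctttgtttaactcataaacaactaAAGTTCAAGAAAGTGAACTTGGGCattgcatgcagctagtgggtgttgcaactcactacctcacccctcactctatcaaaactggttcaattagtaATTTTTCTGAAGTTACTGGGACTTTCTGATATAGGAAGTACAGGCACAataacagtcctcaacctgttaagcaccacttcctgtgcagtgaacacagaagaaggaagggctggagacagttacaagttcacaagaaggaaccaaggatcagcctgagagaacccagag
Ms4a6c: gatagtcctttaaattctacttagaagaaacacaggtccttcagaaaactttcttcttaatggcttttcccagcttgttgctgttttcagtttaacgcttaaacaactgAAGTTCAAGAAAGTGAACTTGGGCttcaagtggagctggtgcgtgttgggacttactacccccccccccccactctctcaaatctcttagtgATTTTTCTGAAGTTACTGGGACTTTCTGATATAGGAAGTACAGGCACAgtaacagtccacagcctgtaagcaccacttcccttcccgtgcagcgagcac
These runs made up 24.0% of each window, and the longest was 48 bases. It began at position -118 from the *Ms4a6b* start and at -49 from the *Ms4a6c* start, so the annotated starts were not at the same place of the shared stretch.

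The windows of *Ms4a4b* and *Ms4a4c* are shown because they were the most alike among the windows of the 7 MS4A genes that had one, with 73.8% identity over 321 aligned columns, while the 2 genes differed widely in level. They are on the plus strand at chr19:11443308-11443607 and chr19:11407411-11407710, with capitals as above.
Ms4a4b: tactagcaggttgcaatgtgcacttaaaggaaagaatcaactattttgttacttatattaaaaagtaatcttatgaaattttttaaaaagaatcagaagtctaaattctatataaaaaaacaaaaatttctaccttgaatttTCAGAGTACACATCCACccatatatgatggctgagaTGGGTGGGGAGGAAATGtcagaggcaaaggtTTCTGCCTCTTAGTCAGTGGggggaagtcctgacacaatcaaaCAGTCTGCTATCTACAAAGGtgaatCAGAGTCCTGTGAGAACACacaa
Ms4a4c: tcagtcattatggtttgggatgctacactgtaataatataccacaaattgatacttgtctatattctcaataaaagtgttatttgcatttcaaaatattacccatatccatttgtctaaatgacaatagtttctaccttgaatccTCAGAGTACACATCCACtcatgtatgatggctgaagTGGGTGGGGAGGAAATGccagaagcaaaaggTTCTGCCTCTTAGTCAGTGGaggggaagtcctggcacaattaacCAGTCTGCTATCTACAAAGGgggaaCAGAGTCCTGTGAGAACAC
Capitals covered 31.0% of each of these windows, in runs of up to 20 bases.

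For *Tmem176a* the plus-strand window at chr6:48841233-48841532 is shown with its match to the kappaB motif, the sequence bound by NF-kappaB factors, in capitals.
Tmem176a: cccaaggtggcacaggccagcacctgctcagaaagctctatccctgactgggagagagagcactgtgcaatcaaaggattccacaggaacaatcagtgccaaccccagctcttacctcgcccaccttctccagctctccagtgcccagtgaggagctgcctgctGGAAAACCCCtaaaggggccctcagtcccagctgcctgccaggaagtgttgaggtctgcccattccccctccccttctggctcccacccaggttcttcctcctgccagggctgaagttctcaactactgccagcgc
The match lay from 48841397 to 48841406, within 208 bases that were also part of a *Tmem176b* window on the other strand. Among the 13 windows of the 9 genes, a kappaB match was also found in that of *Ms4a4a*, and 4.51% of 32851 promoters of the same length held one. The interferon-stimulated response element TTTCNNTTTC and the STAT motif TTCNNNGAA, searched on both strands, were in none of the 13 windows and in 3.44% and 8.3% of all promoters.

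Levels differed between the cell types before any treatment. In wild-type BMDMs with PBS the 8 MS4A genes together reached 573 ± 12.98 FPKM (SD, n = 3), and in wild-type RAW264.7 cells 19.3 ± 1.35. *Ms4a7* had no count in any RAW264.7 library, and *Ms4a4a* had 3 counts in all 12. The tables of the cell types were normalized separately, so these levels were not tested against each other. Among the members above 1 FPKM in both cell types, only *Tmem176b* was higher in RAW264.7 cells, at 27.1 ± 1.18 FPKM against 12.3 ± 1.56 in BMDMs. In bulk libraries fewer cells of a type and less RNA per cell cannot be told apart.

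**Figure D1:**
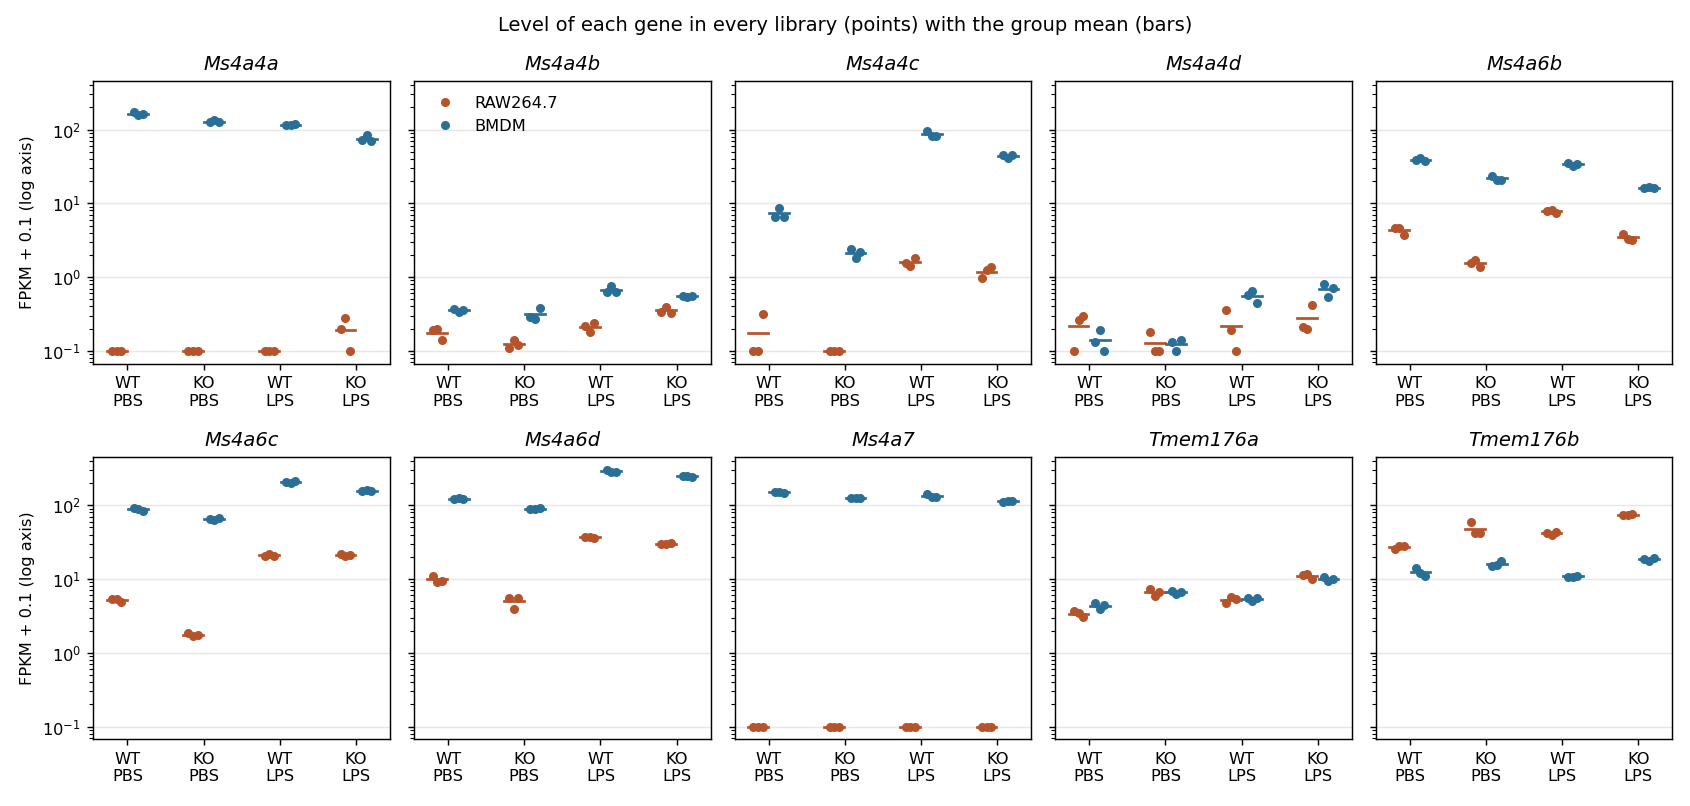
FPKM plus 0.1 on a log axis for each of the 10 genes, with 1 point per library and a bar at the mean of each group of 3, for RAW264.7 cells (orange, KO as labelled) and BMDMs (blue). *Ms4a4a* and *Ms4a7* were above 69 FPKM in every BMDM library and at or near 0 in RAW264.7 cells, and *Tmem176b* was higher in RAW264.7 cells.

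The makeup of MS4A expression also differed. In wild-type RAW264.7 cells with PBS, *Ms4a6d* made up 50.5% of the summed FPKM of the 8 genes, *Ms4a6c* 26.3% and *Ms4a6b* 21.8%. In wild-type BMDMs with PBS the order was *Ms4a4a* (28.6%), *Ms4a7* (26.4%), *Ms4a6d* (21.5%), *Ms4a6c* (15.4%), *Ms4a6b* (6.78%) and *Ms4a4c* (1.26%). The FPKM ranges of *Ms4a4a* (158.32 to 172.47) and *Ms4a7* (147.38 to 153.47) did not overlap, and neither did those of any other neighbours in this order. With LPS *Ms4a6d* came first in BMDMs, with 33.4% in wild type and 37.8% in knockout, and *Ms4a4a* made up 13.4% and 11.4%.

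**Figure D2:**
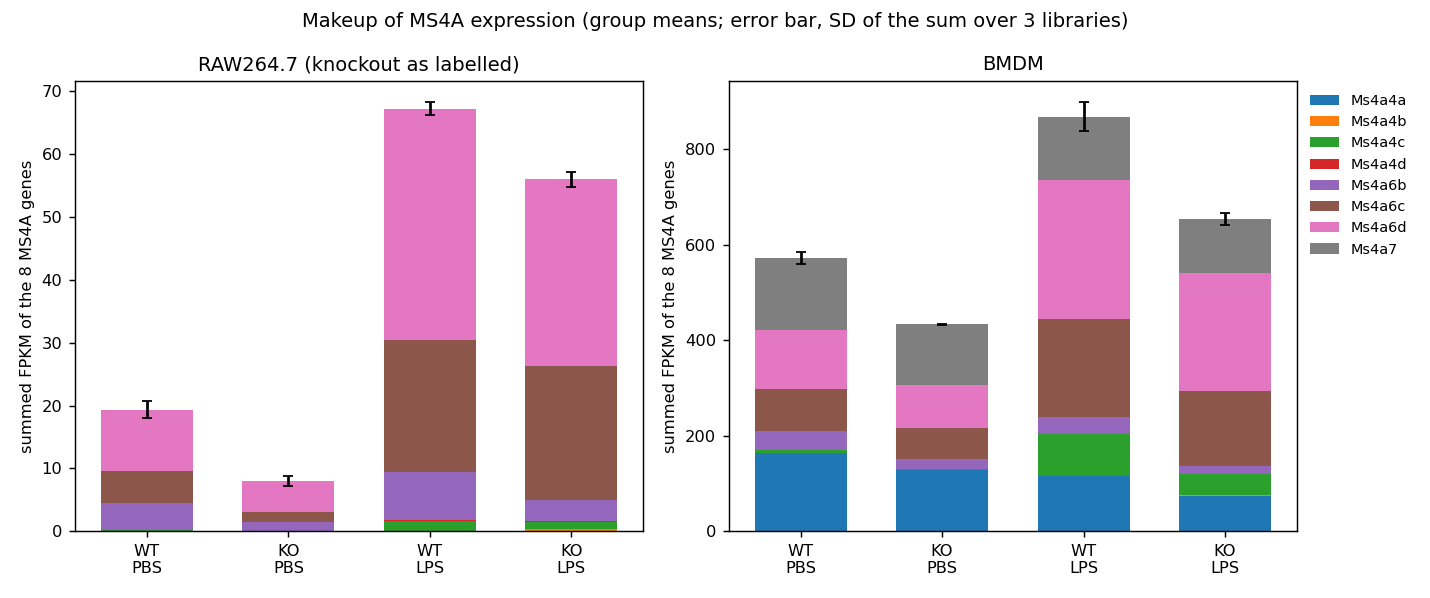
Summed FPKM of the 8 MS4A genes by group, stacked by the mean of each gene, with the SD of the sum over 3 libraries as the error bar and separate linear axes from 0 for RAW264.7 cells (knockout as labelled) and BMDMs. The sum was lower in knockout than in wild type within each treatment and cell type. It includes *Ms4a6b*, which was chosen for being lower in knockout, so this direction is not read as a result of the family. *Ms4a4a* and *Ms4a7* were seen only in the BMDM bars.

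The knockout effect was assessed with limma on log2(FPKM + 0.1), and a gene was called when its adjusted p was below 0.05 and its fold change at least 1.5. In RAW264.7 cells 7 of the other 8 genes were in the fit, since *Ms4a7* had no counts. They included *Ms4a4a*, which had 0 counts in both PBS groups and 3 over the 12 libraries. With PBS 1 of the 7 was called higher and 2 lower in labelled knockout (background over all 26740 genes tested, 4.79% higher and 3.77% lower). With LPS 2 of the 7 were called, both higher (background 9.73% higher and 7.6% lower). In BMDMs 1 of 8 was called with PBS, lower (background over 26973 genes, 0.901% higher and 0.916% lower), and with LPS 1 was called higher and 2 lower (3.23% and 1.53%). Since the set was chosen on these contrasts, nothing is read from these shares. Median log2 fold changes over the other genes were -0.56 (PBS) and 0.46 (LPS) in RAW264.7 cells, and -0.31 (PBS) and -0.27 (LPS) in BMDMs, beside medians of 0.02, 0, 0.01 and 0.04 over all genes tested. The RAW264.7 median with PBS was the value of *Ms4a4c*, on 5 counts in wild type and 0 in labelled knockout. With LPS it was that of *Ms4a4d*, on 7 and 10 counts. These 2 medians rest on few counts and are not read as a shift of the family.

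**Figure D3:**
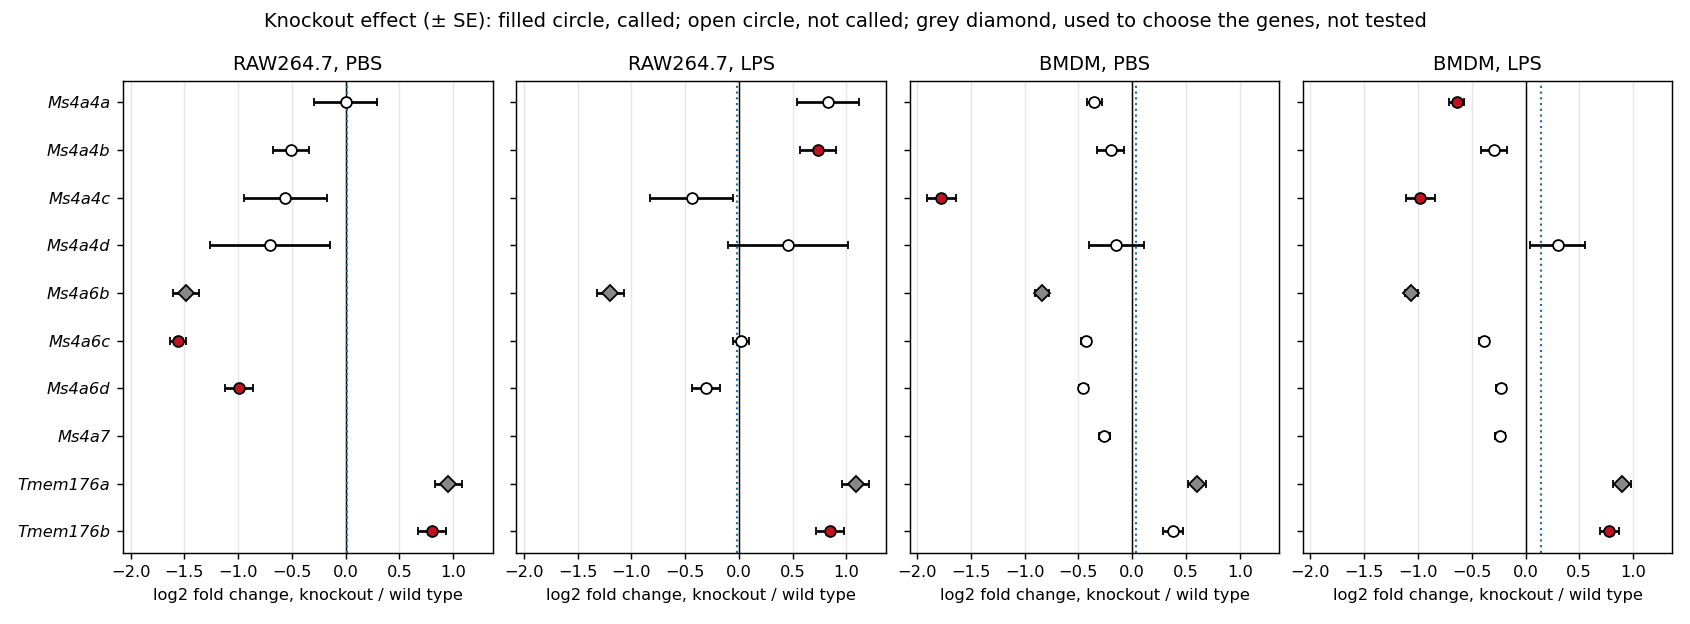
Log2 fold change of knockout (as labelled in RAW264.7 cells) over wild type for each gene, with its SE, in the 4 knockout comparisons, and a dotted line at the median of all genes with a mean of at least 1 FPKM. Grey diamonds are *Ms4a6b* and *Tmem176a*, which chose the set, red points were called, and open points were not. *Ms4a7* is absent from the RAW264.7 panels because it had no counts there.

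The rule did not use the LPS response, so all members were counted here, although the LPS contrasts share libraries with the knockout contrasts that chose the set. In RAW264.7 cells 6 of 9 genes tested were called in wild type and 7 of 9 in labelled knockout, all higher with LPS. The 9 included *Ms4a4a* with its 3 counts. Over all genes 5.8% were called higher and 12.5% lower in wild type, and 7.45% and 14.6% in labelled knockout. In BMDMs 5 of 10 were called in wild type, all higher, and in knockout 6 were called higher and 1 lower, beside 7.94% higher and 32.5% lower, and 8.02% and 30.9%, over all genes. Median log2 fold changes of the members were 0.62 and 1.16 in RAW264.7 cells (wild type and labelled knockout) and 0.61 and 0.71 in BMDMs, beside -0.05, -0.07, -0.30 and -0.28 over all genes tested.

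The FPKM scale itself shifted with LPS in BMDMs, where the median of genes with at least 1 FPKM was -0.73 in wild type and -0.62 in knockout on the log2 scale, and in RAW264.7 cells it was -0.21 and -0.23. Under median-ratio scaling, in which each library is divided by its median ratio to a common reference, these medians were 0.06, 0.06, 0.03 and 0.03, so falls in BMDMs smaller than that shift are given below with their value relative to it.

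**Figure D4:**
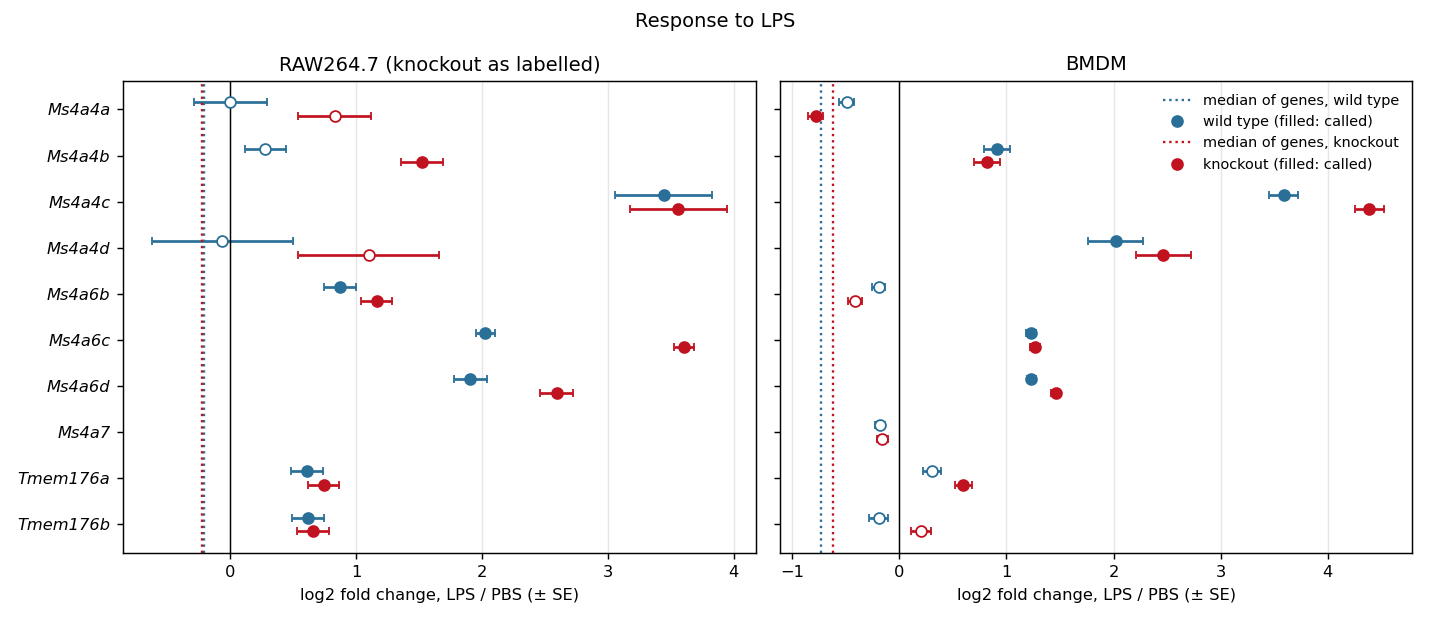
Log2 fold change of LPS over PBS with its SE for each gene in wild type (blue) and knockout (red, as labelled in RAW264.7 cells), filled where called, with dotted lines at the median of all genes with a mean of at least 1 FPKM in each genotype. *Ms4a6c* and *Ms4a6d* were called higher in both genotypes of both cell types, and in BMDMs the open points below 0 lie to the right of the median lines.

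*Ms4a6b*, whose protein has been studied mainly in T cells, was one of the genes that chose the set. In RAW264.7 cells with PBS its FPKM was 4.47, 4.50 and 3.66 in wild type and 1.45, 1.61 and 1.26 in labelled knockout. With LPS it was 7.89, 8.09 and 7.29 against 3.79, 3.15 and 3.09. The genotype groups did not overlap at either treatment, and the log2 fold changes were -1.48 ± 0.12 (SE) and -1.19 ± 0.12.

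In BMDMs *Ms4a6b* was at 38.35, 40.95 and 37.21 FPKM in wild type and 23.43, 20.69 and 20.93 in knockout with PBS. With LPS the values were 35.41, 32.15 and 34.25 against 16.29, 16.42 and 15.91. Every knockout library was below every wild-type library, with log2 fold changes of -0.84 ± 0.06 and -1.06 ± 0.06. As a description of the rule, these 4 values and those of *Tmem176a* (0.95, 1.09, 0.60 and 0.90) were the ones used, and the smallest of them in size, 0.60 for *Tmem176a* in BMDMs with PBS, lay just inside the 1.5-fold threshold. Outside it in BMDMs with PBS lay *Ms4a6d* (-0.45), *Ms4a6c* (-0.43), *Tmem176b* (0.38) and *Ms4a4a* (-0.35), among others.

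The response of *Ms4a6b* to LPS went in different directions in the cell types. In RAW264.7 cells it rose 1.84-fold in wild type (log2 fold change 0.87 ± 0.12, limma adjusted p = 5.31e-04) and 2.32-fold in labelled knockout (1.16 ± 0.12, limma adjusted p = 6.12e-05). In BMDMs the log2 fold change was -0.19 ± 0.06 in wild type (limma adjusted p = 0.0294) and -0.42 ± 0.06 in knockout (3.10e-04), both under 1.5-fold. Relative to the median gene these were 0.53 and 0.20, and on median-ratio scaling they became 0.61 and 0.27, so the direction in BMDMs depended on the scaling. The difference between the cell types was not tested.

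*Ms4a6c*, the member before it on the chromosome, followed *Ms4a6b* in RAW264.7 cells with PBS but not with LPS. With PBS its FPKM was 5.22, 5.29 and 4.71 in wild type and 1.75, 1.58 and 1.64 in labelled knockout. The groups were well apart and it fell to a ratio of 0.327 (log2 fold change -1.56 ± 0.08, limma adjusted p = 1.83e-06). With LPS the values were 20.69, 21.62 and 20.52 against 22.05, 20.40 and 21.31, which overlapped (0.02 ± 0.08, limma adjusted p = 0.966).

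The rise of *Ms4a6c* with LPS was correspondingly different. It was 4.13-fold in wild-type RAW264.7 cells (log2 fold change 2.03 ± 0.08, limma adjusted p = 6.26e-08) and 12.8-fold in labelled knockout (3.60 ± 0.08, limma adjusted p = 1.22e-09). The genotype by LPS interaction was 1.58 ± 0.11 (limma adjusted p = 1.24e-04), and it was 1.62 without replicate 1 of the labelled knockout group with PBS. In RAW264.7 cells 2 of the 7 genes tested were called for the interaction, both higher, beside 0.905% called higher and 1.04% lower over all genes. The other was *Ms4a4b*, described below.

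In BMDMs *Ms4a6c* was abundant in all groups. With PBS it was at 90.89, 88.55 and 84.68 FPKM in wild type and 65.34, 63.49 and 67.12 in knockout. With LPS it was at 207.04, 202.09 and 210.08 against 156.34, 161.06 and 155.39. Knockout libraries were below wild-type libraries at both treatments without reaching 1.5-fold, with log2 fold changes of -0.43 ± 0.05 (limma adjusted p = 5.72e-04) and -0.39 ± 0.05 (4.04e-04). LPS raised it 2.34-fold in wild type and 2.41-fold in knockout, and the interaction was 0.04 ± 0.06 (limma adjusted p = 0.764).

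An antisense gene, *BE692007*, overlapped *Ms4a6c* by 12095 bases. Strandedness of the counting was not given in the sources used here, and without strand reads from the shared exons cannot be told apart. Of the distinct 50-base words of *Ms4a6c* transcripts in GENCODE M21, 49.6% occurred on the opposite strand, mostly in *BE692007*, and 10.5% occurred in transcripts of other genes on the same strand, mainly *Ms4a6b*. *BE692007* was at 0.470, 0.197, 2.82 and 3.53 FPKM in RAW264.7 cells (wild type PBS, labelled knockout PBS, wild type LPS and labelled knockout LPS) and at 7.02, 6.05, 19.2 and 15.8 in BMDMs. It also fell in labelled knockout with PBS (log2 fold change -0.96, limma adjusted p = 0.00121) and had an interaction of 1.27 (0.00649), and its part in the *Ms4a6c* values was not tested.

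*Ms4a6d*, which encodes a macrophage MS4A protein, was the highest MS4A gene in RAW264.7 cells. With PBS it was at 11.01, 9 and 9.30 FPKM in wild type and 5.35, 3.88 and 5.48 in labelled knockout. It fell to a ratio of 0.502 with groups apart (log2 fold change -0.99 ± 0.13, limma adjusted p = 0.00127). With LPS the values were 37.19, 36.63 and 36.32 against 29.47, 29.35 and 30.35, where the groups were also apart but the difference was not called (-0.30 ± 0.13, limma adjusted p = 0.130).

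LPS raised *Ms4a6d* 3.76-fold in wild-type RAW264.7 cells (log2 fold change 1.90 ± 0.13, limma adjusted p = 3.65e-06) and 6.06-fold in labelled knockout (2.59 ± 0.13, limma adjusted p = 3.12e-07). The interaction was 0.69 ± 0.19 and was not called by limma (adjusted p = 0.132), whereas edgeR (0.70, adjusted p = 0.0363) and DESeq2 (0.72, adjusted p = 0.00183) called it. In BMDMs it was at 122.70, 125.36 and 121.91 FPKM in wild type and 89.26, 89.81 and 90.84 in knockout with PBS, and at 304.60, 284.69 and 281.43 against 249.25, 251.34 and 242.28 with LPS. The groups were apart at each treatment, but both knockout effects were under 1.5-fold, at -0.45 ± 0.04 (limma adjusted p = 3.48e-04) and -0.23 ± 0.04 (0.00633). With LPS it rose 2.35-fold in wild type and 2.75-fold in knockout BMDMs.

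Values of the labelled knockout with PBS were also computed without the library that stood apart. The knockout effects were then -1.49 for *Ms4a6b*, -1.60 for *Ms4a6c* (limma adjusted p = 1.25e-06) and -1.06 for *Ms4a6d* (4.08e-04), and 0.87 for *Tmem176a*. The LPS response of the labelled knockout was 3.64 for *Ms4a6c*, 2.66 for *Ms4a6d*, 0.83 for *Tmem176a* and 0.82 for *Tmem176b*. The counts of called members, 3 for the knockout effect, 7 for the LPS response and 2 for the interaction, did not change.

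*Ms4a4c* had the largest called knockout effect among the members in BMDMs. With PBS it was at 6.52, 8.59 and 6.48 FPKM in wild type and 2.28, 1.70 and 2.09 in knockout, and it fell to a ratio of 0.281 (log2 fold change -1.78 ± 0.13, limma adjusted p = 5.89e-05). With LPS the values were 96.84, 82.10 and 82.54 against 45.07, 41.70 and 45.36. The groups stayed apart and it fell to a ratio of 0.505 (-0.98 ± 0.13, limma adjusted p = 9.57e-04).

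LPS raised *Ms4a4c* 12.1-fold in wild-type BMDMs (log2 fold change 3.59 ± 0.13, limma adjusted p = 7.48e-09) and 21.8-fold in knockout (4.39 ± 0.13, limma adjusted p = 2.20e-09). The interaction of 0.80 ± 0.19 was the 1 called among 8 members (limma adjusted p = 0.0387), beside 1.91% called higher and 1.02% lower over all genes. It was called by edgeR and DESeq2 as well, but in limma the adjusted p was above 0.05, at up to 0.0841, when any 1 library other than replicate 1 of the knockout PBS group or replicate 1 of the wild-type LPS group was left out.

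In RAW264.7 cells *Ms4a4c* was near the detection limit without LPS. Wild-type libraries with PBS had 0, 0 and 5 counts and labelled knockout libraries 0, 0 and 0. With LPS its FPKM was 1.47, 1.32 and 1.74 in wild type and 0.88, 1.13 and 1.26 in labelled knockout, which were apart without being called (log2 fold change -0.44 ± 0.39, limma adjusted p = 0.473). Against a floor of 3 counts over the labelled knockout PBS group, the level with LPS was at least 29.9-fold higher. LPS raised it in wild type as well, where the 5 counts of the PBS group came from 1 library (111 counts with LPS, limma adjusted p = 1.02e-04).

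*Ms4a4a*, the macrophage marker of the family, had 26100 counts in BMDMs. With PBS it was at 172.47, 158.32 and 160.67 FPKM in wild type and 126.41, 132.94 and 125.44 in knockout, and these groups were apart at under 1.5-fold (log2 fold change -0.35 ± 0.07, limma adjusted p = 0.0211). With LPS it was at 115.26, 116.44 and 117.49 against 72.11, 83.05 and 69.59, and it fell to a ratio of 0.644 in knockout (-0.64 ± 0.07, limma adjusted p = 2.59e-04). The difference between these knockout effects was not called (-0.29 ± 0.10, limma adjusted p = 0.138).

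Between PBS and LPS *Ms4a4a* was lower by 0.49 ± 0.07 on the log2 scale in wild-type BMDMs (limma adjusted p = 1.47e-04) and by 0.78 ± 0.07 in knockout (4.91e-06), where it was called. Relative to the median gene these values were 0.24 and -0.16. On median-ratio scaling they were 0.31 and -0.09, so the call in knockout was lost and the direction in wild type turned. In RAW264.7 cells the gene had 0, 0, 0 and 3 counts in the 4 groups. It was in the fits there and in their counts of genes tested, but its comparisons are not read.

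*Ms4a4b*, best known from T cells, was low throughout. Its highest FPKM was 0.29 in RAW264.7 cells and 0.66 in BMDMs. In RAW264.7 cells it had 29 and 42 counts in wild type with PBS and LPS, and 9 and 83 in labelled knockout. The fit called it higher in labelled knockout with LPS (log2 fold change 0.73 ± 0.17, limma adjusted p = 0.0121), not lower with PBS (-0.51 ± 0.17, limma adjusted p = 0.0747), and called the interaction (1.24 ± 0.23, limma adjusted p = 0.0272). These rest on few counts, and with a pseudocount of 1 in place of 0.1 the effect with LPS was 0.17 and the interaction 0.24, both under 1.5-fold. The interaction kept an adjusted p below 0.05 without replicate 1 or 2 of the labelled knockout PBS group, replicate 3 of the wild-type LPS group or replicate 3 of the wild-type PBS group, and exceeded it, at up to 0.0758, without any other library. With PBS the gene was called lower by edgeR (-1.80) and DESeq2 (-1.85), and by limma without replicate 3 of the wild-type PBS group (-0.67, adjusted p = 0.0404).

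In BMDMs *Ms4a4b* was at 0.27, 0.24 and 0.26 FPKM in wild type with PBS and 0.53, 0.66 and 0.53 with LPS. LPS raised it 2.23-fold in wild type (log2 fold change 0.91 ± 0.12, limma adjusted p = 1.04e-04) and 2.09-fold in knockout (0.82 ± 0.12, limma adjusted p = 2.42e-04), and no knockout effect was called in BMDMs. With a pseudocount of 1 these rises were 0.32 and 0.25 on the log2 scale and were not called. *Ms4a4d* was lower still, with 4, 2, 46 and 54 counts in the BMDM groups (wild type PBS, knockout PBS, wild type LPS and knockout LPS). LPS raised it in both genotypes (limma adjusted p = 6.51e-05 and 1.54e-05). With a pseudocount of 1 the wild-type value was 0.48 and was not called, whereas the call in knockout held. Its RAW264.7 groups had between 2 and 10 counts each, and none of its comparisons there was called.

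*Ms4a7*, the other macrophage marker, had the most counts of the 10 members in BMDMs, 150104 over 12 libraries. With PBS it was at 152.85, 153.47 and 147.38 FPKM in wild type and 126.45, 126.62 and 125.70 in knockout. With LPS it was at 142.14, 128.55 and 129.68 against 110.67, 114.40 and 114.40. The genotype groups were apart at both treatments at well under 1.5-fold, with log2 fold changes of -0.26 ± 0.05 (limma adjusted p = 0.0175) and -0.24 ± 0.05 (0.00875). Its LPS responses of -0.18 in wild type and -0.16 in knockout were 0.55 and 0.46 relative to the median gene, and turned to 0.62 and 0.53 on median-ratio scaling.

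*Tmem176a*, the other gene that chose the set, moved opposite to *Ms4a6b* by the rule. In RAW264.7 cells with PBS it was at 3.62, 3.35 and 2.96 FPKM in wild type and 7.34, 5.72 and 6.49 in labelled knockout, and with LPS at 4.59, 5.53 and 5.19 against 11.25, 11.69 and 9.88. In BMDMs it was at 4.66, 3.85 and 4.29 against 6.74, 6.23 and 6.60 with PBS, and at 5.46, 4.96 and 5.44 against 10.56, 9.20 and 10.03 with LPS. No knockout library overlapped the wild-type libraries of its treatment.

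LPS raised *Tmem176a* 1.54-fold in wild-type RAW264.7 cells (log2 fold change 0.61 ± 0.12, limma adjusted p = 0.00480) and 1.68-fold in labelled knockout (0.74 ± 0.12, limma adjusted p = 0.00124). The wild-type value was under 1.5-fold without replicate 2 of the LPS group (0.55) or replicate 3 of the PBS group (0.53). In BMDMs it rose 1.52-fold in knockout (0.60 ± 0.08, limma adjusted p = 1.22e-04), and the wild-type value of 0.31 ± 0.08 (limma adjusted p = 0.00959) was under 1.5-fold. Without replicate 1 of the knockout LPS group or replicate 2 of the knockout PBS group, the knockout value was 0.55 and 0.56. On median-ratio scaling the wild-type value was 1.09 and was called.

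*Tmem176b* was also higher in knockout. In RAW264.7 cells with PBS it was at 25.74, 27.93 and 27.59 FPKM in wild type and 59.69, 41.84 and 42.52 in labelled knockout, and it rose 1.77-fold (log2 fold change 0.80 ± 0.13, limma adjusted p = 0.00386). The highest value was that of the library that stood apart, and without it the effect was 0.64 (limma adjusted p = 8.16e-05). With only these 2 groups in the fit the call was lost (limma adjusted p = 0.0758). With LPS the values were 41.38, 39.59 and 44.00 against 74.54, 74.00 and 75.76, a rise of 1.79-fold (0.84 ± 0.13, limma adjusted p = 0.00186).

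In BMDMs *Tmem176b* was at 14.08, 11.91 and 11.05 FPKM in wild type and 15.15, 15.53 and 17.54 in knockout with PBS, which were apart but not called (log2 fold change 0.38 ± 0.09, limma adjusted p = 0.0557). With LPS it was at 10.68, 10.51 and 10.99 against 18.83, 17.41 and 19.31, and it rose 1.73-fold in knockout (0.78 ± 0.09, limma adjusted p = 4.28e-04). The difference between these effects was 0.40 ± 0.13 (limma adjusted p = 0.123). LPS raised it in RAW264.7 cells, 1.54-fold in wild type and 1.56-fold in labelled knockout (limma adjusted p = 0.00545 and 0.00329). In wild type the value fell below 1.5-fold without replicate 3 of the LPS group (0.58) or replicate 1 of the PBS group (0.58), and in labelled knockout without replicate 2 (0.57) or 3 (0.58) of the PBS group. In BMDMs the LPS values of -0.19 ± 0.09 in wild type and 0.20 ± 0.09 in knockout were not called. Relative to the median gene they were 0.53 and 0.82, and they became 0.60 and 0.89 on median-ratio scaling.

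The ratio of *Tmem176b* to *Tmem176a* FPKM was higher in RAW264.7 cells than in BMDMs in every group. It was 8.26 ± 1.11 (SD, n = 3) and 8.22 ± 0.955 in wild-type RAW264.7 cells with PBS and LPS and 7.33 ± 0.790 and 6.87 ± 0.703 in labelled knockout. In BMDMs it was 2.90 ± 0.280 and 2.03 ± 0.0821 in wild type and 2.47 ± 0.206 and 1.87 ± 0.0744 in knockout. Reads in the overlap of the pair cannot be told apart without strand, but only 0.333% and 0.476% of their 50-base words were shared.

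Among 12 other MS4A genes in the tables only *Ms4a14*, the gene beside *Ms4a7*, reached a group mean of 1 FPKM. In BMDMs it was at 19.4 ± 0.309, 15.8 ± 0.731, 16.3 ± 0.744 and 17.1 ± 0.480 FPKM (SD, n = 3) in wild type PBS, knockout PBS, wild type LPS and knockout LPS, and it had 0 counts in RAW264.7 cells. Its knockout effects were -0.29 (limma adjusted p = 0.0132, under 1.5-fold) with PBS and 0.07 (0.476) with LPS. *Ms4a8a* was called higher with LPS in wild-type BMDMs on 1 and 13 counts. *Gm8369*, between *Ms4a6c* and *Ms4a6b*, was called lower in labelled knockout RAW264.7 cells with PBS at 0.153 against 0.0400 FPKM (log2 fold change -0.87, limma adjusted p = 0.0395) and had no call in the other knockout comparisons. The remaining neighbours, *Ms4a2* on chromosome 19 and *Gimap3* and *Aoc1* on chromosome 6, had at most 1, 1 and 2 counts in any group.

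Likeness of pattern was measured as Pearson's r over the 8 group means of log2(FPKM + 0.1), each cell type centred on its own mean, among 10452 genes with at least 1 FPKM in some group of both cell types. For *Ms4a6b* the most alike were *Gm46546* (r = 0.987), *Sdc3* (0.927) and *Shisa5* (0.918), and *Gm46546* had at most 19 counts in a group. For *Tmem176a* they were *Slc7a1* (0.981), *Cdc37* (0.955) and *Gm11613* (0.951), and *Tmem176b* had r = 0.951. Between members r was 0.986 for *Ms4a6c* and *Ms4a6d*, 0.620 for *Ms4a6b* and *Ms4a6c*, and -0.517 for *Ms4a6b* and *Tmem176a*. The 8 means share libraries and normalization within a cell type. They also hold the knockout differences by which *Ms4a6b* and *Tmem176a* were chosen, in opposite directions. The negative r of this pair and the genes most alike to each are therefore partly set by the rule, and nothing is read from them.

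Interferon-induced genes moved beside several members. Of 10 such genes (*Irf7*, *Isg15*, *Ifit1* and others), LPS raised all 10 in both genotypes of both cell types. In knockout BMDMs with PBS all 10 were called lower (median log2 fold change -2.64), and with LPS 3 were (-0.41). In labelled knockout RAW264.7 cells 7 were called lower with PBS (-1.46) and 7 with LPS (-0.87). Their part in the *Ms4a4c* and *Ms4a6c* values was not tested.

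Macrophage and dendritic cell markers also differed between the RAW264.7 groups. In RAW264.7 cells the summed FPKM of 8 macrophage markers ran from 3343.53 to 3401.85 in wild type and from 1144.82 to 1420.13 in labelled knockout with PBS, and from 3880.09 to 4013.38 against 1215.46 to 1278.38 with LPS. *Lyz2* made up most of the wild-type sum, with mean FPKM of 2052 in wild type and 317 in labelled knockout with PBS. Of 7 markers tested 4 were called lower with PBS (*Adgre1*, *Cd14*, *Itgam* and *Lyz2*) and 4 with LPS (*Cd14*, *Fcgr1*, *Itgam* and *Lyz2*). With PBS *Csf1r* (263 and 340 FPKM) and *Fcgr1* (18.3 and 22.1) were higher in labelled knockout than in wild type. *Cd68* was lower (578 and 454), and none of these was called. The sum of 6 dendritic cell markers was 1.08 to 1.36 in wild type and 8.66 to 10.12 in labelled knockout with PBS, and 0.68 to 0.78 against 2.75 to 2.81 with LPS, with *Ccr7* and *Cd209a* at 0 in all RAW264.7 libraries. Of 4 dendritic cell markers tested, 1 was called with PBS and 3 with LPS, all higher. The mean FPKM with LPS in wild type and labelled knockout was 0.387 and 1.92 for *Siglech*, 0.253 and 0.677 for *Xcr1*, and 0.0800 and 0.183 for *Zbtb46*. The calls with LPS thus include genes at low levels. The sum with PBS was almost all *Siglech*, with mean FPKM of 1.12 in wild type and 9.21 in labelled knockout, while *Zbtb46* and *Xcr1* were at most 0.137 and 0.123 with PBS and *Flt3* had 0 counts. Their part in the member values was not tested.

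In BMDMs the macrophage sum was 14852.8 to 15277.4 in wild type and 16620.4 to 17811 in knockout with PBS, and 12368.5 to 12636.9 against 12874.9 to 13152.8 with LPS, and *Fcgr1* was the 1 marker of 8 called lower at either treatment. The sum was mostly *Lyz2*, with mean FPKM of 12309 in wild type and 14941 in knockout with PBS, and the median log2 fold change of the 8 markers in knockout was -0.13 with PBS and -0.12 with LPS, opposite in sign to the difference of the sums. The 8 T cell markers summed to 7.73 to 8.67 FPKM in wild type and 6.49 to 6.85 in knockout with PBS, and to 15.95 to 17.72 against 7.15 to 7.37 with LPS. Of 3 tested, 1 was called with LPS, *Lck*, lower in knockout. The sum with LPS was almost all *Lck*, with mean FPKM of 11.8 in wild type and 3.79 in knockout, and *Cd4*, with 4.79 and 3.47. In RAW264.7 cells 1 of 5 T cell markers tested was called lower in labelled knockout at each treatment. This was also *Lck*, with mean FPKM of 0.993 and 0.263 with PBS and 2.54 and 0.440 with LPS. *Cd3d*, *Cd3e*, *Cd3g*, *Cd8a* and *Trbc2*, which define T cells, were at 0 in all BMDM libraries. The summed levels of B cell, NK cell, mast cell and neutrophil markers were at most 4.24, 0.98, 1 and 0.73 FPKM in any library of either cell type.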

How the data were processed

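Libraries were made from poly(A) RNA and read from both ends (150 bases). The authors deposited, for each cell type, a table of raw counts per gene and of FPKM values, which divide the counts by exonic length and by library size. FPKM rebuilt from the counts and lengths was within 1% of the deposited FPKM for 100.0% of values over 50 counts. The submitters' notes name mm10, but only 1435 of 52073 shared gene IDs had the coordinates of GENCODE M21, and neither aligner nor counter was given in the sources used here. Of the annotation columns, the gene symbols, exonic lengths and coordinates were used.

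Groups came from the sample titles, since the genotype tag contradicted the title in 12 of 24 libraries. The study's methods name limma, an adjusted p below 0.05 and a fold of at least 1.5. Here limma 3.58.1 (R 4.3.3) was fitted to log2(FPKM + 0.1), 1 fit per cell type over 12 libraries, for all genes with an FPKM above 0 in any library, with Benjamini-Hochberg adjustment over all genes tested and the same thresholds. This scale understates changes of low genes. edgeR 4.0.16 (quasi-likelihood) and DESeq2 1.42.0 on the counts were alternatives, with other pseudocounts, filters, scalings and libraries left out.

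The members and lists were chosen with earlier results of these data known. All 10 members were named whatever their values, other MS4A genes where a group mean reached 1 FPKM or a comparison called them, the protein-coding genes beside the members, and the 3 genes most alike in pattern. *Gm8369* and the antisense gene *BE692007* were named for their position. On simulated data with 2-fold changes in 200 genes of the knockout comparison with PBS, limma recovered 89% in RAW264.7 cells (25647 genes) and 91.5% in BMDMs (25924 genes). It made 8 and 17 false calls, while edgeR recovered 100% and 99.5% and DESeq2 98.5% in both. Genes with low counts were not changed, the spread was the same for all genes and no library stood apart. The recovery therefore does not cover members with few counts or the library that stood apart.

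No 2 replicates were alike within sampling noise (chi-square per degree of freedom 1.76 to 81.1 over 24 pairs). The study calls the replicates biological, but separate cultures or animals are not stated in the labels, so p-values measure the spread between these libraries, which may be technical. Sequences were copied from RefSeq (GRCm38.p6) with Python 3.11.15, and motifs and shared runs were found by exact match.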

Additional observations from a re-analysis of the deposited data

Results flagged for a closer look

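The effect of knockout differed between PBS and LPS for 3 members by the interaction test of limma. The difference (log2) was 1.58 for *Ms4a6c* in RAW264.7 cells (adjusted p = 1.24e-04) and 1.24 for *Ms4a4b* in RAW264.7 cells (0.0272), where *Olfml3* RNA was higher in the libraries labelled knockout. It was 0.80 for *Ms4a4c* in BMDMs (0.0387). The calls of *Ms4a4b* and *Ms4a4c* were lost when any 1 of 8 and of 10 of the 12 libraries was left out (adjusted p up to 0.0758 and 0.0841) and under the replicate block (0.0743 and 0.0848).

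The response to LPS went in opposite directions in the cell types for *Ms4a6b*, at 0.87 in RAW264.7 cells and -0.19 in BMDMs in wild type, and at 1.16 in labelled knockout RAW264.7 cells and -0.42 in knockout BMDMs. It did so for *Tmem176b* in wild type, at 0.62 and -0.19. In each case the LPS and PBS libraries did not overlap. The difference between the cell types was not tested, and the direction in BMDMs turned with the scaling.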

How the results depend on the processing

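Counts of called members were stable for most settings, with 152 of the values within 1.5 times the reported count and 38 outside it. In RAW264.7 cells the knockout count with PBS was 5 by DESeq2. With LPS it was 1 with a pseudocount of 1 or 0.01 or an FPKM filter (at least 1 in at least 3 libraries), and the interaction count was 1 under these 3 settings, TPM, an intensity trend and the replicate block. In BMDMs, without the fold threshold, the knockout count was 5 with PBS and 6 with LPS, and the wild-type LPS count was 9. The wild-type LPS count was 3 with a pseudocount of 1 or the FPKM filter and 9 under median-ratio scaling or DESeq2. The BMDM interaction count was 0 in limma with a pseudocount of 1 or 0.01, median-ratio scaling or the replicate block, whereas edgeR and DESeq2 each called 1 and 4 members had an unadjusted p below 0.05 in limma.

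With 1 library left out, counts in RAW264.7 cells ran from 3 to 4 (knockout, PBS), 2 to 3 (knockout, LPS), 5 to 6 (LPS, wild type), 6 to 8 (LPS, labelled knockout) and 1 to 2 (interaction). In BMDMs they ran from 1 to 1, 3 to 3, 5 to 5, 6 to 7 and 0 to 1 in the same order.

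Scaling turned the direction of LPS responses in BMDMs, given here for median-ratio scaling, edgeR, edgeR without a filter and DESeq2. In wild type *Ms4a4a* was at 0.31, 0.28, 0.22 and 0.31, *Ms4a6b* at 0.61, 0.58, 0.52 and 0.61, *Ms4a7* at 0.62, 0.59, 0.53 and 0.62, and *Tmem176b* at 0.60, 0.57, 0.51 and 0.60. In knockout *Ms4a6b* was at 0.27, 0.25, 0.19 and 0.27 and *Ms4a7* at 0.53, 0.51, 0.45 and 0.54. Over all genes, the share of calls that were higher with LPS in BMDMs moved from 19.6% to 47.9% in wild type and from 20.6% to 46.8% in knockout under median-ratio scaling. In RAW264.7 cells it moved from 31.7% to 49.7% and from 33.8% to 51.7%. For the knockout with LPS in BMDMs it moved from 67.9% to 43.4%, and for the BMDM interaction from 65.1% to 46.8%. With TPM it moved from 56.0% to 68.9% and from 56.1% to 75.0% for the RAW264.7 knockout with PBS and LPS.

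Replicate numbers did not pair the libraries, since correlations of deviations between same-numbered libraries ran from -0.058 to 0.084. The replicate block cost the interaction calls of *Ms4a4b* in RAW264.7 cells (adjusted p = 0.0743) and *Ms4a4c* in BMDMs (0.0848). Comparisons of *Ms4a4a*, *Ms4a4b*, *Ms4a4c* and *Ms4a4d* in RAW264.7 cells rested on few counts, with 3, 163, 187 and 27 counts over 12 libraries. Among values of single members, 1560 were counted as unchanged, 49 lost and 29 gained a call, 23 moved by more than the replicate spread and 24 turned. A change of sign counted as turned only where an adjusted p was below 0.05 in either fit, so the unchanged include values near 0 that changed sign. For *Ms4a6b* and *Tmem176a* in the knockout and interaction comparisons, unchanged meant a move within the replicate spread, with no threshold. The cause of these changes was not tested.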
